A study of Arabidopsis thaliana with 8 samples.

Results

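Plates TA52 to TA63 are 12 consecutive plates of spotted probes on a tiling array of Arabidopsis thaliana chromosome 4. They lie, in the order of the probe IDs, just after TA37 to TA51, a block of plates with low ratios of dimethylated histone H3 lysine 4 (H3K4me2). Their members are the probes whose ID names one of these plates, a row from A to H and a well from 01 to 12, and that have a value in every column: 1140 of 1152 IDs, or 5.35% of the 21295 probes with values on the array. The plates were chosen by their H3K4me2 ratios in these same 4 replicates, so the levels, calls and runs given below describe the members and test nothing about them. The samples were seedlings of ColxC24, named as a hybrid of the accessions Col-0 and C24, although the strain field gives c24 alone. They were untreated and 10 days old, grown in liquid medium at 22 degrees C with 16 hours of light. Chromatin was precipitated with an antibody against H3K4me2 (IP) and hybridised against input DNA. Each of 4 replicates, I to IV, was measured on 2 arrays with the dyes swapped, and both arrays of a pair carry identical values, so n = 4 throughout. Nothing in the labels ties a replicate to its own plants or its own chromatin, so every SD below may be technical. Seedlings hold many cell types, and the ratio is a mean over all of them.

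H3K4me2 is placed on nucleosomes by histone methyltransferases and, in plants, lies over genes in euchromatin, both active and poised. It is scarce in the condensed, transposon-rich heterochromatin around centromeres, where dimethylated H3 lysine 9 and DNA methylation are the usual marks. Where pericentromeric heterochromatin gives way to a chromosome arm, islands of genes and stretches of repeats are commonly interspersed. The IDs give no position, and 0 of the 1140 members occur in the gene table of the species, so no member is named by gene, exon or coordinate here, and no probe sequence was at hand.

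All values are log ratios, taken as log2, minus the median of all probes of the same replicate. The authors' direction of the ratio, IP over input or the reverse, is not given in the sources used here, and "low", "below" and "above" follow the sign as deposited. With the sign turned, every low stretch would be a high one. The medians of the whole array before centring ran from -0.76 to -0.23 over the 4 replicates. In the members, replicates I and III were most alike (Pearson correlation across probes 0.99), as were II and IV (0.99), while the other 4 pairings were at 0.94, the same grouping as on the whole array.

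The members had medians of -0.96, -0.84, -0.93 and -0.81 in replicates I to IV, averaging -0.89 ± 0.07 (SD, n = 4). All replicates lay below 0, the median probe of the array. The 2 sets of replicates that share a number in their titles are a possible batch. The mean of their replicate medians was -0.90 for I and II and -0.87 for III and IV. Replicates I and III, at -0.96 and -0.93, lay lower than II and IV, at -0.84 and -0.81, the same grouping as in the correlations. The members spread widely around this level: the 5th percentile was -2.91 ± 0.14, the 25th -1.80 ± 0.13, the 75th -0.07 ± 0.08 and the 95th 1.32 ± 0.06. Single probes ran from -4.12 to 2.71 in the mean of the replicates. The spread over replicates was small beside that over probes, with a median SD of 0.19 for a member, against 0.20 over all probes of the array.

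A probe was called below or above when limma's treat test placed its ratio more than 0.5 from the median probe, on either side, at a Benjamini-Hochberg adjusted p under 0.05 over all 21295 probes. Of the 1140 members, 627 (55.0%) were called below, where 30.6% of all probes were, and 121 (10.6%) were called above, where 28.1% of all probes were. The remaining 392 (34.4%) were called neither way. The balance depends on where 0 is placed. With the values as deposited and no centring, 744 members lay below and 53 above, where 39.3% and 10.7% of all probes did.

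The members sat between the plates on each side. Their median exceeded that of the low block TA37 to TA51 by 1.29, 1.15, 1.28 and 1.13 in replicates I to IV, a mean of 1.21 ± 0.08 (SD, n = 4). It lay below that of the following plates, TA64 to TA99, with differences of -0.96, -0.84, -0.89 and -0.83, a mean of -0.88 ± 0.06. Both differences had 1 sign in 4 of 4 replicates and were far larger than the spread between replicates. They have no test, since the plates were divided on this value, and an exact two-sided sign-flip test over 4 replicates cannot go below p = 0.125. The lower and upper tails differed unequally from the low block. The 5th percentile of the members, -2.91 ± 0.14, lay above that of the low block, -3.31 ± 0.12, in every replicate. The 10th percentiles were further apart, at -2.49 ± 0.13 and -3.10 ± 0.12, and so were the 25th, at -1.80 ± 0.13 and -2.67 ± 0.13. The 95th percentiles were further apart still, 1.32 ± 0.06 in the members and -0.14 ± 0.03 in the low block. Members were spread more widely than either neighbour, with an SD over probes of 1.25 ± 0.05 (SD over 4 replicates). It was 0.98 ± 0.03 in TA37 to TA51 and 1.15 ± 0.03 in TA64 to TA99. Over all probes of the array it was higher still, at 1.41, 1.32, 1.39 and 1.34 in replicates I to IV. The members thus held low probes, with a 5th percentile somewhat above that of the low block, beside probes well above the median.

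**Figure D1:**
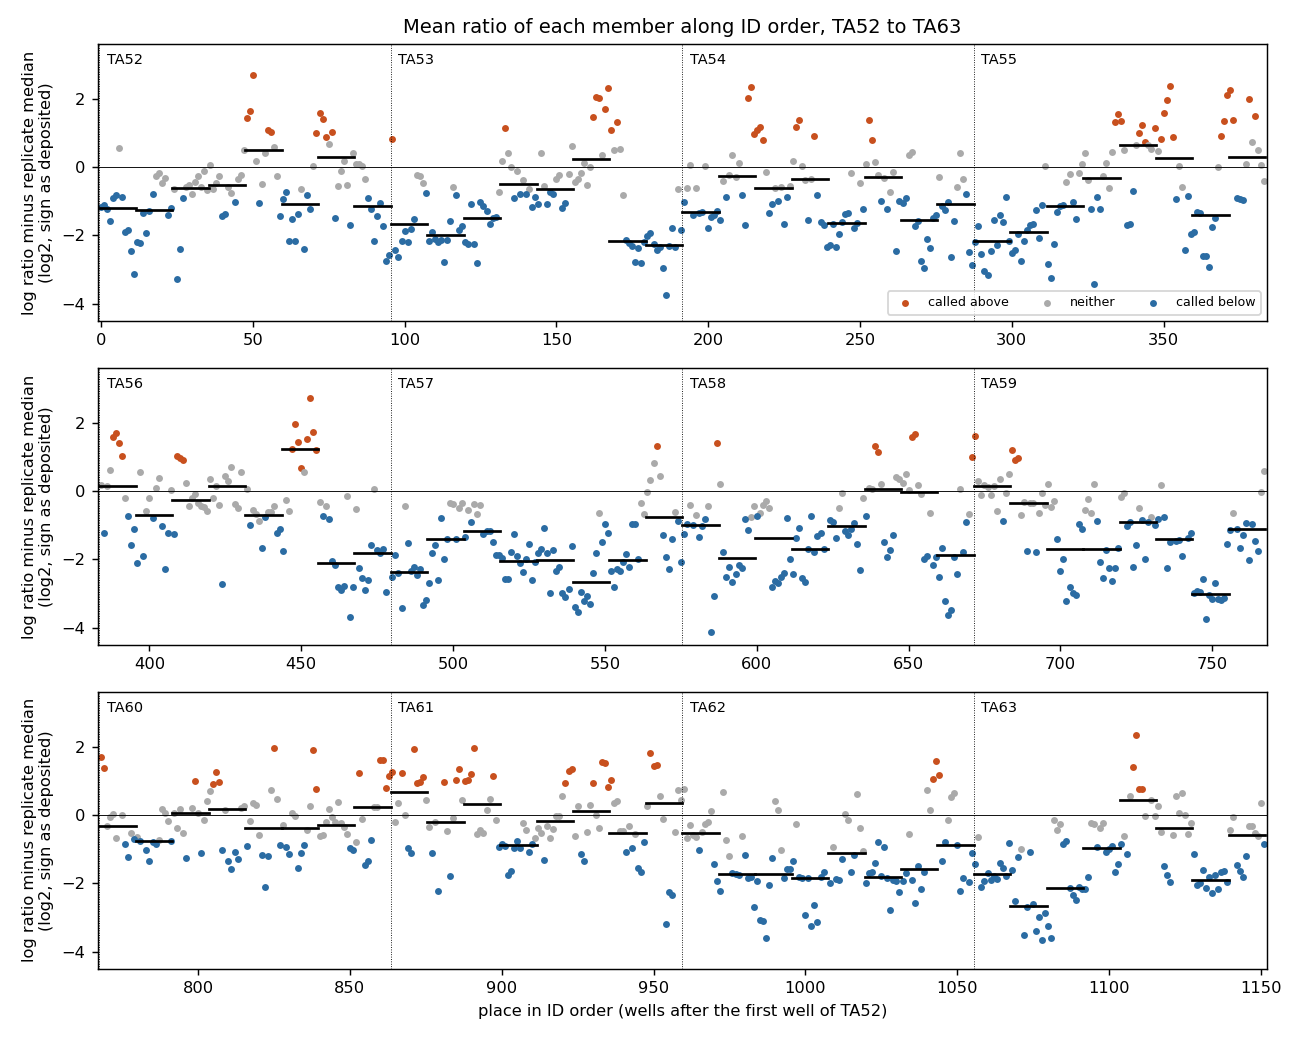
Mean ratio over 4 replicates of each of the 1140 members (vertical axis, log2, minus the replicate median) against its place in ID order (horizontal axis, wells). Points are coloured by call, black bars are medians of rows of 12 wells and dotted lines are plate borders. Row medians step between -3.01 and 1.22, and the longest run of probes called below fills the middle of TA57.

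The 12 plate medians ranged from -1.79 to -0.26, in no steady order. TA61 was at -0.25, -0.27, -0.19 and -0.32 in replicates I to IV, and TA60 at -0.54, -0.13, -0.44 and -0.06. The 2 highest plates overlapped, and TA61 was the higher in 2 of 4 replicates. TA56 followed at -0.57, -0.34, -0.56 and -0.31, TA52 at -0.83, -0.70, -0.77 and -0.55, TA55 at -0.91, -0.82, -0.90 and -0.85, and TA54 at -1.03, -1.01, -0.89 and -0.89. Each plate of this series was lower than the one before it in 4 of 4 replicates, except TA54, which was lower than TA55 in 3. TA59 had medians of -1.15, -1.06, -1.09 and -1.03, TA53 of -1.07, -1.14, -1.02 and -1.12, and TA58 of -1.26, -1.03, -1.25 and -0.95. These 3 plates did not differ beyond their spread. TA63 was lower than TA58 in 4 of 4 replicates, at -1.46, -1.16, -1.44 and -1.15, and TA62 was lower still, at -1.80, -1.20, -1.80 and -1.16, though in II and IV by little. The lowest plate, TA57, had medians of -1.86, -1.71, -1.90 and -1.72, which lay below those of TA62 in every replicate although the 2 ranges overlapped.

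A plate was taken as low where each of the 4 replicates placed its median under -1, a bound used earlier on these data. By it the low plates were 5, namely TA53, TA57, TA59, TA62 and TA63. Low and other plates then formed 8 alternating stretches along the 12 plates. The alternation rests in part on the bound. Just inside it lay TA53, whose highest replicate was at -1.02, and TA59, at -1.03. Just outside it lay TA58, which missed it through replicate IV at -0.95 alone, and TA54, which missed it in III and IV. TA58 was lower than TA53 in 2 of 4 replicates. Without replicate IV there were 6 low plates, TA58 among them, in 6 stretches. TA57, TA59, TA62 and TA63 were low at the bound of -1 with no centring, with quantile normalization and with any 1 replicate left out, while TA53 was not under quantile normalization, and at a bound of -1.5 TA57 was the only plate left. The 5 low plates together had 318 of their 475 probes called below (66.9%) and 21 above (4.42%), against 309 of 665 (46.5%) below and 100 (15.0%) above in the other 7. The plates outside the low class were therefore not free of low probes. Their share called below was under that of the low plates but above the 30.6% of all probes. Both shares called above lay under the 28.1% of all probes. The classes were split on the medians of these same probes, so the contrast between them was largely fixed beforehand.

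**Figure D2:**
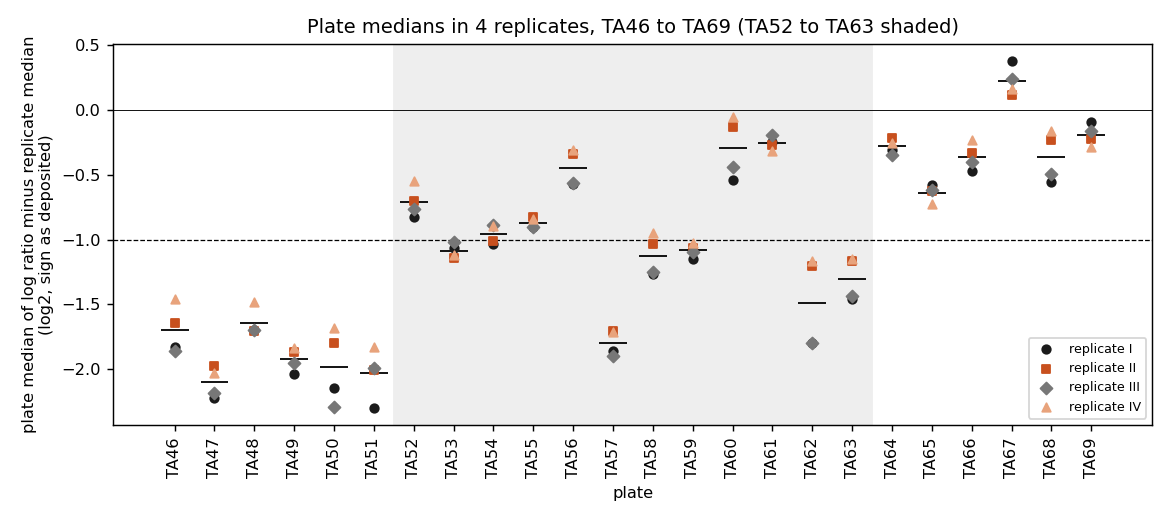
Plate medians of the centred log2 ratio (vertical axis) in replicates I to IV (symbols) and their mean (bar) for plates TA46 to TA69, with TA52 to TA63 shaded and the bound of -1 dashed. The medians step up at TA52, move up and down between -1.79 and -0.26 and step up again after TA63.

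Measures of a gradient along ID order differed in direction within the 12 plates. The slope of the plate median on the plate number was -0.0254, 0.0053, -0.0285 and -0.0015 log2 units per plate in replicates I to IV, averaging -0.0125 ± 0.0170 (SD, n = 4), with a mean smaller than its spread and a sign that differed between replicates. The line took up 0.01% to 3.97% of the spread of the plate medians. Spearman's rho of plate median and plate number was negative in each replicate, between -0.23 and -0.16, a description of 12 plates from the same arrays. Without TA52 the mean slope was -0.0032, and without TA63 it was 0.0028. The median of all probes of TA58 to TA63, -0.82 ± 0.06, was above that of TA52 to TA57, -0.97 ± 0.06, in each replicate, opposite in direction to rho. The plate medians were irregular, with an SD over the 12 plates of 0.48 ± 0.03. Of the steps between direct neighbours inside the stretch, those into TA57 and TA62 were picked out after the values were seen. TA57 differed from TA56 by -1.29, -1.37, -1.33 and -1.40 in replicates I to IV (mean -1.35 ± 0.05), and TA62 differed from TA61 by -1.55, -0.93, -1.61 and -0.85 (mean -1.23 ± 0.40).

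The first border was less sharp probe by probe than the plate medians show. The median of TA52 exceeded that of TA51 by 1.32 ± 0.11 (SD, n = 4). Yet the first rows of TA52 were as low as the last rows of TA51: row A of TA52 had a median of -1.28 ± 0.34 and row B -1.22 ± 0.15, against -1.26 ± 0.11 in row G and -1.19 ± 0.15 in row H of TA51. Row F of TA51, the one before, was at -2.06 ± 0.24. Row C of TA52 was at -0.59 ± 0.16 and row E at 0.51 ± 0.11, but rows F and H were again at -1.13 ± 0.17 and -1.13 ± 0.10, and row B of TA53 was at -1.92 ± 0.10. The row medians thus moved up and down after the border. The first member called above was TA52E01, at 1.40, 1.43, 1.39 and 1.58 in replicates I to IV. The last probe called above before it in the low block was TA48C10, at 1.01, 2.06, 1.38 and 2.70, so no probe of TA49, TA50 or TA51 was called above. At the other end, TA64 exceeded TA63 by 1.02 ± 0.12. Row G of TA63 was low, at -1.85 ± 0.35 with 12 of 12 probes called below, row H was at -0.60 ± 0.08, and row A of TA64 was at 0.42 ± 0.10.

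Most of the variation lay within plates. Of the sum of squares over members, 12.8% ± 0.66 was between plates, 30.4% ± 1.10 between rows of a plate (8 rows of 12 consecutive wells) and 56.8% ± 1.51 within rows (SD, n = 4). In TA37 to TA51 these shares were 6.54% ± 0.87, 27.1% ± 1.44 and 66.3% ± 0.87, and in TA64 to TA99 they were 13.0% ± 0.59, 21.6% ± 0.45 and 65.4% ± 0.62. The share within rows was lower in TA52 to TA63 than in either neighbour in every replicate. These shares were not tested. Of the 96 rows, 38 lay under -1 by their median in each of the 4 replicates, 13 lay above 0 in each, and 45 had neither. A row under -1 was found in 10 plates, all but TA60 and TA61, and a row above 0 in 7. In 5 plates both kinds occurred: TA52, TA53, TA55, TA56 and TA63. The low rows were divided between 24 in the 5 low plates and 14 in the other 7, with 8 rows in each plate. Of the rows above 0, 2 were in the low plates and 11 in the others. Low plates were defined by medians of the same probes, so this contrast was largely built in.

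The lowest row was TA59G, with medians of -3.04, -2.84, -2.90 and -2.92 in replicates I to IV and 12 of 12 probes called below. The other 2 named low rows were TA57F, at -2.49, -2.63, -2.49 and -2.59, and TA63B, at -3.096, -2.245, -2.904 and -2.208. In TA63B replicates I and III were lower than II and IV, the same likeness of replicates as given above. The highest row was TA56F, at 0.97, 1.20, 1.16 and 1.32, with 8 of 12 probes called above. It was followed directly by TA56G at -2.18, -1.98, -2.21 and -2.11, with 9 of 12 called below, so that neighbouring rows of 1 plate differed by more than the whole range of the plate medians. TA61A, at 0.70, 0.72, 0.78 and 0.75, and TA55E, at 0.81, 0.59, 0.84 and 0.46, were the next highest. These rows were picked as the extremes.

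**Figure D3:**
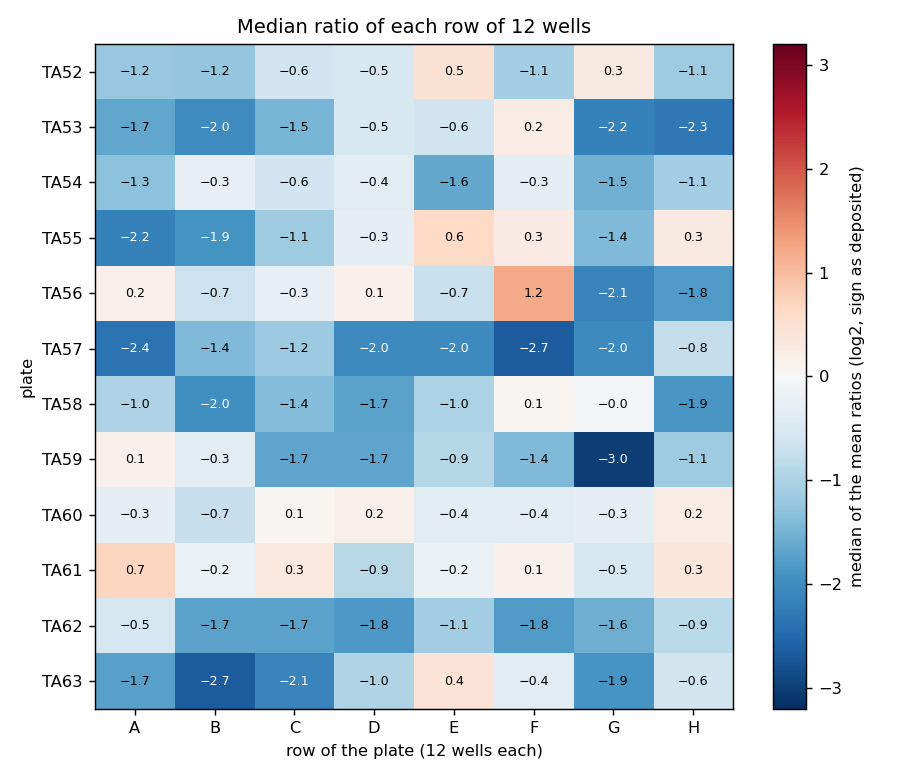
Median log2 ratio of the probe means in each row of 12 wells (columns A to H, in ID order from left to right) for each plate (top to bottom in ID order), on a scale centred on 0, with blue for rows below the median probe. TA59G is the lowest at -3.01 and TA56F the highest at 1.22, and TA60 and TA61 have no row under -1.

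Runs of consecutive wells with the same call were counted, a run ending at a well with no value. The 627 members called below formed 149 runs with a mean length of 4.21 probes and a median of 3, and the 121 called above formed 49 runs with a mean of 2.47. Low runs were the longer ones: 64.6% of the members called below were in runs of 5 or more and 39.4% in runs of 10 or more. The longest run above had 6 probes. More members were called below (55.0%) than above (10.6%), which by itself makes runs below longer. Whether runs of either kind were longer than these shares give was not tested. Single-probe runs numbered 50 below and 17 above. In the neighbouring plates the mean length of a run below was 12.1 in TA37 to TA51 and 2.22 in TA64 to TA99, with longest runs of 104 and 18 against 38 in TA52 to TA63. The share of called-below probes in runs of 10 or more was 79.2% in TA37 to TA51 and 8.63% in TA64 to TA99. Run length and the share of probes called moved together over the 3 stretches, and their relation was not tested. Runs called above had almost the same mean length in TA64 to TA99, 2.20. They were 11.8 per 100 probes there and 4.30 per 100 in TA52 to TA63. In TA64 to TA99, 24.3% of probes were called below and 26.0% above, and the longest runs had 18 and 16 probes.

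Long low runs were scattered rather than gathered at the start. The 16 runs of 10 or more held 247 probes and touched 9 of the 12 plates. TA56, TA60 and TA61 had none. The longest, TA57C07 to TA57F08, had 38 probes with means of -2.27, -2.11, -2.25 and -2.16 in replicates I to IV, and none of its probes was above -1.10. It ended at TA57F09, at -0.63 ± 0.21, after which another run of 13 began. TA54H10 to TA55B11 had 26 probes, at -2.13, -1.94, -2.07 and -1.95, and was the only one of the 16 to cross a plate border. TA58C06 to TA58D11 had 18 probes, at -1.96, -1.88, -1.98 and -1.82. Its end is a well without a value, TA58D12, and the next probe, TA58E01, was also called below at -0.86 ± 0.12. All 3 runs were preceded by a probe called neither way, at -0.40 ± 0.17, -0.36 ± 0.15 and -0.50 ± 0.11.

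The runs above were short, and 3 of the 4 longest bordered directly on a probe called below. TA54B10 to TA54C03 was the longest, with 6 probes at means of 1.54, 1.24, 1.47 and 1.30 in replicates I to IV. The probe just before it, TA54B09, was at -2.02, -1.53, -1.89 and -1.31. Of the runs with 5 probes, TA55F02 to TA55F06 was at 1.53 ± 0.15, TA55G10 to TA55H02 at 1.600 ± 0.137 and TA60H09 to TA61A01 at 1.28 ± 0.04 (SD, n = 4). Both runs in TA55 were followed directly by a probe called below, TA55F07 at -0.93 ± 0.05 and TA55H03 at -0.91 ± 0.12. Every plate held at least 1 probe called above, from 25 in TA61 and 19 in TA55 to 1 in TA57. Counted at the plate where they start, runs above were most numerous in TA61, with 10, and TA57, TA59, TA62 and TA63 had 1 each.

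Going along the members, the call changed sides, from below to above or back, 76 times, or 6.67 times per 100 probes, against 1.04 in TA37 to TA51 and 10.5 in TA64 to TA99. In 13 of the 76 no uncalled probe stood between. Most neighbours were close, with a median difference of 0.57 between wells 1 apart. It was 0.54 in TA37 to TA51 and 0.58 in TA64 to TA99. Of 1127 neighbouring pairs, 38 (3.37%) differed by more than 2. That share was smaller than in TA37 to TA51 (4.22%) and in TA64 to TA99 (5.03%). These 38 steps were spread over all 12 plates, 19 of them upward, and each had 1 direction in all 4 replicates. The steps were chosen by the mean of these same replicates, and the median SD of a member was 0.19. A shared direction was therefore nearly certain. The largest, picked out after the values were seen, was from TA58A11 to TA58A12, a rise of 4.32, 4.54, 4.28 and 4.81 in replicates I to IV. It ended the trough that holds TA58A10, the lowest member.

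**Figure D4:**
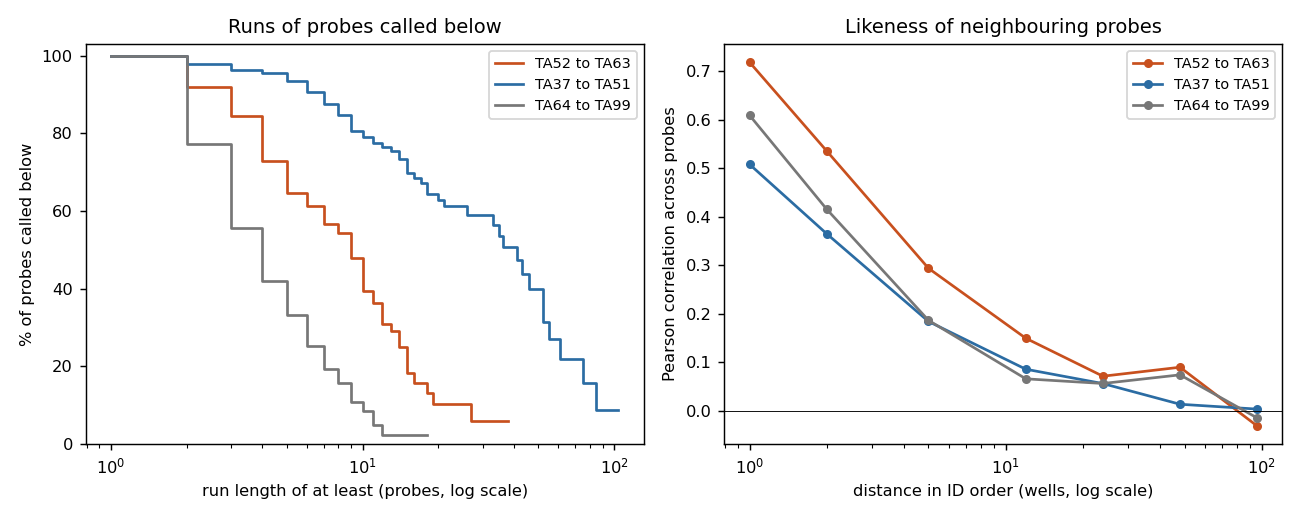
Left, the share of probes called below that lie in runs of at least the length on the horizontal axis (probes, log scale); right, the Pearson correlation across probes of mean ratios at the distance on the horizontal axis (wells, log scale). Lines are TA52 to TA63, TA37 to TA51 and TA64 to TA99. Runs in TA52 to TA63 lie between those of its neighbours, and its correlation at 1 well, 0.72, is the highest of the 3. Its median difference at 1 well, 0.57, is not the smallest.

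Ratios of neighbouring members were alike over short distances. The Pearson correlation across probes was 0.72 at 1 well (1127 pairs), 0.54 at 2, 0.29 at 5, 0.15 at 12, 0.07 at 24, 0.09 at 48 and -0.03 at 96, which is the same well of the next plate. The points share arrays and, for close probes, possibly sequence, so these are descriptions. The correlation at 1 well was 0.51 in TA37 to TA51 and 0.61 in TA64 to TA99. A correlation depends also on the spread over probes, which was widest in TA52 to TA63 of these 3 stretches. The median difference at 1 well was 0.57 in TA52 to TA63, 0.54 in TA37 to TA51 and 0.58 in TA64 to TA99. Read down the columns of each plate instead of along the rows, the correlation at 1 well in TA52 to TA63 was 0.13 and the longest run below had 14 probes. The likeness of direct neighbours was thus higher along the rows than down the columns. Most neighbours down a column are 12 wells apart in row order, where the correlation was 0.15, so the column value is no separate check. At 24 wells and beyond the correlation was under that at 12.

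The 3 highest members by the naming rule were TA56F10, TA52E03 and TA55F05. TA56F10 was at 2.41, 2.74, 2.71 and 2.98 in replicates I to IV, between neighbours at 1.52 and 1.74. TA52E03 was at 2.87, 2.89, 2.42 and 2.55, between neighbours at 1.65 and 0.17. TA55F05 was at 2.40, 2.32, 2.36 and 2.43, the tightest of the 3. TA56F10 ranked 26th, TA52E03 32nd and TA55F05 96th from the top among the 21295 probes of the array. They were picked as the highest of 1140 members, so these ranks are descriptions and test nothing.

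The 3 lowest members were TA58A10, TA53H07 and TA59G05. TA58A10 was at -4.00, -4.29, -3.89 and -4.31, with neighbours at -0.45 before it and -3.07 after it. TA53H07 was at -3.87, -3.62, -3.75 and -3.76, within a run of 17 probes called below at a mean of -2.41 ± 0.18. TA59G05 was at -3.90, -3.38, -4.01 and -3.64, between neighbours at -2.56 and -3.03. These 3 lay in 3 different plates, of which TA58 was not a low plate by the bound. Counted from the top of the 21295 probes, TA58A10 ranked 21263, TA53H07 21197 and TA59G05 21194. They too were picked as extremes.

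The replicates differed most at TA62B04, at -1.34, -0.30, -2.73 and -0.46 in replicates I to IV, and at TA60H01, at -2.13, 0.05, -0.79 and -0.24. Neither was called. Their means moved with 1 replicate: without III that of TA62B04 was -0.70, against -1.21 with all 4, and without I that of TA60H01 was -0.33, against -0.78. By plate, TA62 had the widest range over the replicates, 0.63, and TA60 the next, 0.48. Of the 4 rows with the widest range, 3 were in TA62: row C was at -2.14 and -2.44 in I and III and at -1.16 and -1.17 in II and IV. Row B was at -1.94, -1.08, -2.15 and -1.34 in replicates I to IV, and row F at -2.23, -1.31, -2.29 and -1.42. TA57G, at -2.38, -1.39, -2.29 and -1.39, had the same pattern. In these 4 rows I and III were lower than II and IV, and all 4 replicates stayed below -1. No label groups the replicates this way, and what sets them apart was not tested.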

How the data were processed

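H3K4me2 ChIP-chip ratios of 4 replicates were taken from the table of values the authors deposited, read here as log2 ratios. For the log base, the direction, the background correction and the normalization, no source used here gives a statement. Swapped arrays of a replicate carried the same value at every probe (0 differing) and were used as 1 replicate. Each replicate was centred on its median over 21295 valued probes, with no loess or quantile step. Calls came from limma 3.58.1 in R 4.3.3 (lmFit, then treat with a size of 0.5, 4 replicates, two-sided, Benjamini-Hochberg over all probes, adjusted p under 0.05). The fit was first tested on simulated data with independent noise in the 4 replicates. It recovered 59.5% of probes set at a size of 1 and 97.0% at a size of 2. The unchanged probes were set at 0, well inside the treat size of 0.5, so that 0% were called says little. Likeness between replicates was not simulated. The fit treats the 4 replicates as independent, although I and III, and II and IV, were more alike. Random blocks for either pairing were alternatives. Plates, rows, runs, slopes and correlations were computed in Python 3.11.15 with numpy 2.4.6 and pandas 2.3.3. Named probes were the 3 highest and 3 lowest with 1 sign in all replicates and the 2 with the widest range; named runs were the 3 longest below and the 2 longest above, ties included; named rows were the 3 highest and 3 lowest by median. Other probes, runs and rows named (borders, flanks, the largest step, the widest rows, TA56G, the run around TA53H07) were chosen after their values were seen. The members, bounds and rules were chosen with earlier results of these data known. Of the members' IDs, 12 had no value. Signal intensities were not used here, so precision is limited by the 4 replicates.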

Additional observations from a re-analysis of the deposited data

Results flagged for a closer look

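In 4 of 152 values tested, 1 of the 4 replicates stood far from the other 3, by Dixon's criterion at the 95% level, and chance flags about 1 in 20 such groups. All 4 were row medians. Row B of TA54 was at -0.14 in replicate III, and the nearest other replicate was at -0.36. Row F of TA54 was at 0.0401 in replicate IV, against -0.36 for the nearest. Row F of TA55 was at 0.37 in replicate I, against 0.21. Row E of TA56 was at -0.89 in replicate II, against -0.71. A different replicate stood apart in each, and 3 of the 4 rows kept 1 sign in all replicates, the exception being row F of TA54. The causes were not tested.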

How the results depend on the processing

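With no centring, 53 members lay above, the median of the members was -1.39 and 8 plates were low. A size over 1 left 59 above and 437 below. With a bound of -0.5, 9 plates were low in 5 stretches, and with -1.5, 1 plate in 3 stretches. Column order of the wells gave 257 runs below and 106 above, with longest runs of 14 and 3. The correlation at 1 well was then 0.13. The 87 other comparisons of the main results with an alternative stayed within 1.5 times the count or within 1 SD. These included quantile normalization, an adjusted p under 0.01, and both ways of pairing replicates as random blocks. Part of them could not have failed. A mean over 4 replicates cannot move by 1 SD when 1 is left out or either set of title numbers is used alone. This covers those settings for the median, the slope and the shares of the spread. With the most alike replicates as blocks (I, III and II, IV; correlation 0.73), 578 lay below and 106 above; with the sets of title numbers as blocks (correlation -0.75), 674 and 135. With 1 replicate left out, 601 to 621 lay below and 114 to 116 above, and 5 to 6 plates were low. The slope then lay between -0.0185 and -0.0072 and the median between -0.91 and -0.86. Plate medians and named probes kept their sign in 156 of 156 alternatives, but 22 moved by more than 1 SD. The sign was largely fixed beforehand. Plate medians were negative in every replicate, and the highest and lowest probes were picked for 1 sign in all 4. No centring lowers every value, and it moved every plate median and each of the highest and lowest probes. With no centring TA61 was at -0.76, and with the mean in place of the median it was at -0.099, against -0.26. For the changes with the bound, the size, the centring and the column order, the cause was not tested. Signal over background was not used here, so what depth limits is unknown.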
